A study of Mus musculus with 6 samples.

Results

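The Th2 cytokine locus on mouse chromosome 11 holds the cytokine genes Il4, Il13 and Il5 together with Rad50 and Kif3a. It was described here through 45 ATAC-seq peaks of 282898 listed in all. A peak belonged to the locus if its listed gene was Il4 (2 peaks), Il13 (3), Rad50 (9), Il5 (1) or Kif3a (8), or if it had no gene and started within a 210 kb window of chromosome 11 around these genes (22 peaks; build mm9). This rule used names and positions and no measured value, but it was set with earlier results of these data known. ATAC-seq reports open chromatin, since a transposase inserts adaptors where DNA is accessible. Libraries came from sorted T follicular helper (Tfh) cells, the helper T cells that support germinal centre B cells, of untreated Stat6 KO and Stat6 WT mice of strain C57BL/6. They were sorted into the populations Tfh4, Tfh214 and Tfh21, with 1 library for each genotype and population and 10 mice used per genotype, so that no library has a replicate. Per the labels' protocols, 50000 cells entered each library. What the population names stand for, which part of Stat6 the KO allele lacks, the age of the mice and the tissue were not given in the sources used here.

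IL-4, IL-13 and IL-5 are the signature cytokines of type 2 immunity. Their genes are neighbours and are switched on together in Th2 cells, where IL-4 acts through the transcription factor STAT6, and GATA3 follows. In mice, elements outside the coding sequence control them, among them the 3' elements of Il4, of which HS V (also called CNS2) is needed for IL-4 in Tfh cells, and a locus control region in the 3' introns of Rad50, part of which depends on STAT6 in Th2 cells. The deposited table does not mark these elements, and no peak was assigned to one here. Rad50 itself encodes a subunit of a DNA double-strand break repair complex, and Kif3a a subunit of the kinesin motor that moves cargo along cilia.

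Start sites of the locus differed in sequence as well as in strength. RefSeq promoters (build GRCm38.p6) were found for 4 of the 5 genes, and the 250 bases before each start are shown because the locus joins T cell cytokine promoters with the promoter of a widely used gene. Il4 has 2 listed transcripts, a coding one and a noncoding one that starts 1327 bases further into the gene. The sequences run 5' to 3' on the strand of the gene. Capitals mark matches on either strand to the NFAT core GGAAA, to the GATA word, which is GATA with A or T before it and A or G after it, and to the STAT word, which is TTC and GAA with any 4 bases between them. Where the STAT word and GGAAA overlap they form 1 run.

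Il4 noncoding transcript, chr11:53617339-53617588, minus strand: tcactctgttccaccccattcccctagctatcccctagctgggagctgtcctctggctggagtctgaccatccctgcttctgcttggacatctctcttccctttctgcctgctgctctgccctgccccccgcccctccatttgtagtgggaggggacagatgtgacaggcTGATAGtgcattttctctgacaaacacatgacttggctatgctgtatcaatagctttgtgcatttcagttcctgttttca

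Il4 coding transcript, chr11:53618666-53618915, minus strand: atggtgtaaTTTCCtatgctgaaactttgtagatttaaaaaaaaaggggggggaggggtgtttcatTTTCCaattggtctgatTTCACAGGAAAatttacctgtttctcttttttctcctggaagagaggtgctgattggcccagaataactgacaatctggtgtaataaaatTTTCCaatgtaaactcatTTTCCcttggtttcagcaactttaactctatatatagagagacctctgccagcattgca

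Il13, chr11:53634703-53634952, minus strand: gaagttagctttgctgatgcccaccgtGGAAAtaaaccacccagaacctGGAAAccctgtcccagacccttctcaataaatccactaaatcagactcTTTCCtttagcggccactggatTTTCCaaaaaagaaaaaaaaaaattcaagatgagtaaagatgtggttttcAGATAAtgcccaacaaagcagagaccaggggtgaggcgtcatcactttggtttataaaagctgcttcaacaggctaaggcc

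Il5, chr11:53720544-53720793, plus strand: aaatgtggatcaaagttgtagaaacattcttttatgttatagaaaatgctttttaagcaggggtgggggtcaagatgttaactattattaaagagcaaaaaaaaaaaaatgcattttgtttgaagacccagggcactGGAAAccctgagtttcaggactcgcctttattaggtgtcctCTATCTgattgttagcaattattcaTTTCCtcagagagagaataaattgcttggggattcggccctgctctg

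Kif3a, chr11:53567119-53567368, plus strand: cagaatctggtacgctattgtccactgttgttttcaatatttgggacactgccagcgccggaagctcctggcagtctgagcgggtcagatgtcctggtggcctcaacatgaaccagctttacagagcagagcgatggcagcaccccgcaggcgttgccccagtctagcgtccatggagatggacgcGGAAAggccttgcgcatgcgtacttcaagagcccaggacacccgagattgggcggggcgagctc

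The coding Il4 promoter held 5 matches to GGAAA and 1 to the STAT word, which overlap at a single place, and none to the GATA word. Il13 held 4 matches to GGAAA and 1 GATA word, and Il5 held 2 and 1. The noncoding Il4 start held 1 GATA word and no GGAAA, and Kif3a held 1 GGAAA. Of 32851 promoter windows of this length, 55.6% held GGAAA, 26.5% a GATA word and 5.85% the STAT word. Kif3a had 15 CpG dinucleotides and a GC content of 58.8%. The coding Il4 start had 0 CpG and 37.6% GC, Il5 had 2 and 37.6%, Il13 had 3 and 43.2%, and the noncoding Il4 start had 1 and 52.8%, against medians of 6 and 52.4% over all windows. A match is a description of letters and not a bound site.

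Depth set how much could be seen. The libraries held 1238585, 798555 and 1051120 reads in peaks for KO Tfh4, Tfh214 and Tfh21, and 1373218, 1271755 and 1122701 for WT. Levels below are in CPM, the reads of a peak scaled to all reads in listed peaks of its library, and reads are the whole reads recovered from them. The 45 peaks held 963 reads in all, with a median of 14 per peak, which is also the median over all listed peaks; 42 of the 45 held fewer than 30 reads. With 1 library per group no difference has a replicate check, so ratios are given with exact binomial 95% intervals (Clopper-Pearson) that cover counting error only, not the spread between mice. An interval that excludes 1 is used as a mark of size beyond counting error. In most cases it is set beside the share of all listed genes, peaks or segments that the same mark picks out.

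Tfh marker genes were open in every library: all 8 of a Tfh and CD4 T cell list (Cd4, Cd3e, Cxcr5, Pdcd1, Icos, Bcl6, Il21 and Maf) had listed peaks and none was at 0 in a library. The same held for those B cell, myeloid and CD8 T cell genes that had listed peaks, so this does not set Tfh cells apart. Peaks away from start sites took 70.3%, 65.1% and 63.6% of reads in KO Tfh4, Tfh214 and Tfh21 and 72.3%, 69.0% and 68.4% in WT, outside the locus. Weak peaks as a class thus stood relatively higher in Tfh4 and lower in KO. Outside the locus, peaks under 30 reads stood at 0.905 for KO over WT, 1.04 for Tfh214 over Tfh21 and 1.15 for Tfh4 over Tfh21. Ratios of the larger sums are given beside a class ratio, while those of most genes and groups are to be read against these values.

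The map of the locus by position had a pair of tall peaks at the starts of Rad50 and Kif3a, and low peaks elsewhere. Those start sites held 281 reads, 29.2% of all reads of the locus. Their mean level per length was 29.2 CPM per kb of peak at Rad50 and 31.4 at Kif3a. Among cytokine start sites the level was 16.4 CPM per kb at the noncoding Il4 start, 5.13 at Il5, 4.83 at Il13 and 3.55 at the coding Il4 start. The peak at the coding Il4 start lay 62 to 488 bases after it, while the peak at the noncoding start spanned it (-158 to 96). The Il13 start-site peak lay at -896 to -483 and that of Il5 at -1471 to -856, both upstream of the windows printed above. Kif3a's peak reached from -132 to 460 and Rad50's from -293 to 472. By reads, 71.6% of the 20036 listed start-site peaks were weaker than that of Rad50, 67.2% than that of Kif3a, 47.2% than the noncoding Il4 start, 40.9% than Il5, 21.7% than Il13 and 6.64% than the coding Il4 start.

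**Figure D1:**
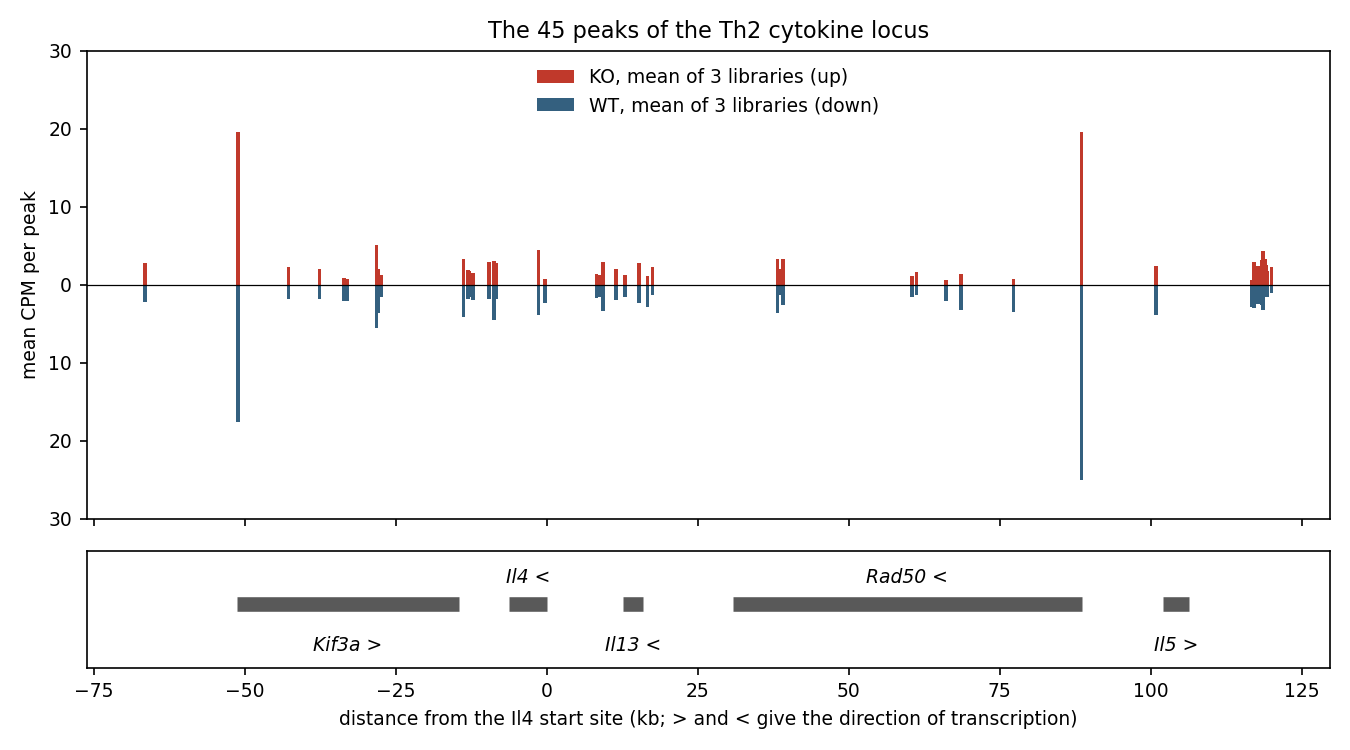
Mean CPM of each of the 45 peaks (vertical axis) against distance from the coding Il4 start site in kb, with KO means of 3 libraries drawn upwards and WT means of 3 libraries drawn downwards; bars have a fixed width and can overlap, and grey boxes are transcripts. The Kif3a and Rad50 start sites stand far above every other peak in both genotypes.

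With genotypes pooled, the level of Il4 was higher in both Tfh214 and Tfh4 than it was in Tfh21, on few reads in any library, and most Il4 reads lay at the noncoding start. This peak, in mm9 at chromosome 11, 53430745 to 53430999, stood at 4.04, 7.51 and 1.90 CPM in KO Tfh4, Tfh214 and Tfh21 and at 5.10, 5.50 and 0.891 CPM in WT. Each of the 4 Tfh4 and Tfh214 libraries lay above both Tfh21 libraries. In bulk libraries such as these, fewer cells with an open site and less signal per cell cannot be told apart. On 13 reads in Tfh214 and 3 in Tfh21 the ratio was 4.55 (95% interval 1.25 to 24.9), where 3.51% of all listed peaks excluded 1. On 12 reads in Tfh4 it was 3.33 (0.898 to 18.4). KO to WT it was 1.06 (0.463 to 2.38; 13 and 15 reads). The peak just inside the coding start (53431680 to 53432106) was near the limit of detection, with 1, 1 and 0 reads in KO Tfh4, Tfh214 and Tfh21 and 3, 5 and 1 in WT. Its KO to WT ratio was 0.271 (0.0285 to 1.31), so that a difference by genotype was not detectable there.

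Both Il4 peaks together gave 19 reads in Tfh214 and 4 in Tfh21, a ratio of 4.99 (1.66 to 20.2), and 16 in Tfh4, a ratio of 3.33 (1.07 to 13.7) over Tfh21. Tfh4 stood at 0.668 of Tfh214 (0.321 to 1.37), so the order of those populations was not resolved. Among the 5 genes, Il4 alone had an interval that excluded 1 for Tfh214 over Tfh21, where 5.83% of all 19109 genes did, and for Tfh4 over Tfh21, where 12.3% did. With KO libraries alone neither excluded 1: Tfh214 over Tfh21 was 4.61 (0.877 to 45.5) and Tfh4 over Tfh21 was 2.55 (0.455 to 25.8). With WT libraries alone the ratios were 5.30 (1.18 to 48.7), where 4.81% of all genes excluded 1, and 4.09 (0.871 to 38.4).

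Il13 and Il5, which encode cytokines of mucus production and of eosinophil growth, had intervals that included 1 in every comparison of populations. Il13 held 4, 3 and 9 reads in KO Tfh4, Tfh214 and Tfh21 and 11, 9 and 6 in WT, over peaks at its transcript end, in intron 1 and upstream of its start. In CPM that was 3.23, 3.76 and 8.56 in KO and 8.01, 7.08 and 5.34 in WT. The highest Il13 level was thus in KO Tfh21 and the lowest in KO Tfh4, while WT Tfh4 and WT Tfh214 were close to that highest level. Tfh214 over Tfh21 was 0.840 (0.359 to 1.92) and Tfh4 over Tfh21 was 0.832 (0.379 to 1.83). The only Il5 peak, upstream of its start, held 2, 3 and 2 reads in KO Tfh4, Tfh214 and Tfh21 and 8, 4 and 3 in WT. Its ratios were 1.47 (0.402 to 5.87) for Tfh214 over Tfh21 and 1.66 (0.518 to 6.21) for Tfh4 over Tfh21.

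By genotype, the summed level of the cytokine genes was lower in KO than in WT in Tfh4, and counting error covered the difference in the other populations. Il4, Il13 and Il5 together stood at 9.69 CPM in KO Tfh4 against 21.1 in WT Tfh4, at 16.3 in KO Tfh214 against 19.7 in WT Tfh214, and at 12.4 in KO Tfh21 against 9.80 in WT Tfh21. Reads were 12 and 29, 13 and 25, and 13 and 11 in the same order. The Tfh4 ratio was 0.459 (0.213 to 0.927), in a pair where 7.62% of all genes had an interval that excluded 1. Pooled over populations, peaks under 30 reads outside the locus stood at 0.905 in KO over WT. For the cytokine genes the Tfh214 ratio was 0.828 (0.389 to 1.68) and the Tfh21 ratio 1.26 (0.522 to 3.11); whether the 3 ratios differ from each other was not tested. Over all populations KO to WT was 0.713 (0.465 to 1.08; 38 and 65 reads), with 0.762 (0.372 to 1.51) for Il4, 0.751 (0.376 to 1.45) for Il13 and 0.569 (0.196 to 1.48) for Il5. Each of these pooled intervals includes 1. Leaving out 1 population at a time moved Il13 between 0.454 (without Tfh21; 0.162 to 1.12) and 1.04 (without Tfh4; 0.443 to 2.37), and Il5 between 0.396 (without Tfh214; 0.0921 to 1.34) and 0.925 (without Tfh4; 0.231 to 3.38).

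**Figure D2:**
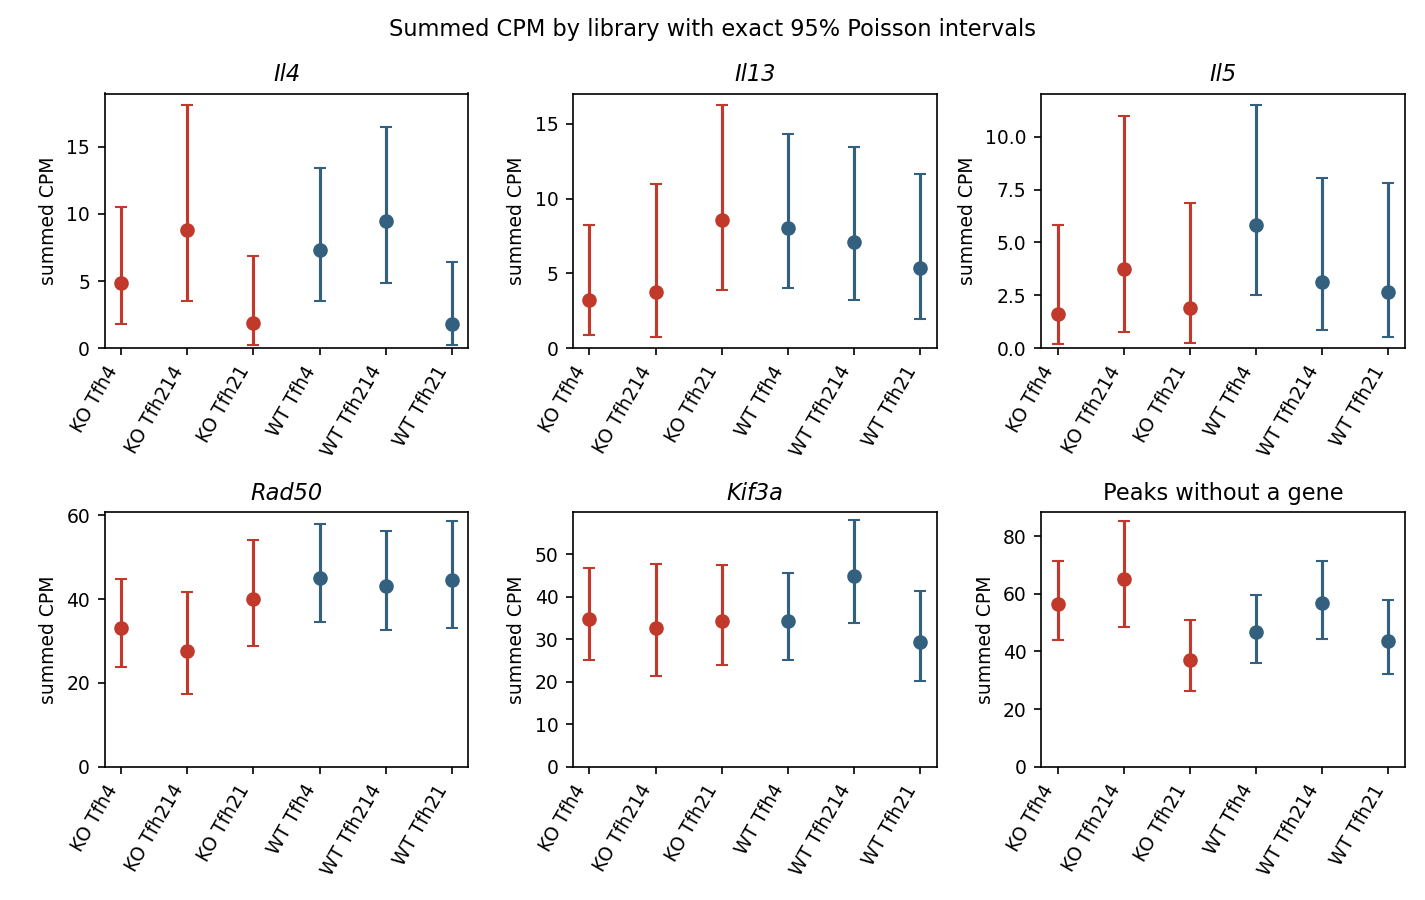
Summed CPM (vertical axis) of Il4, Il13, Il5, Rad50, Kif3a and the peaks without a gene in each of the 6 libraries (KO in red, WT in blue), with exact 95% Poisson intervals, which cover counting error only. Il4 lies lowest in Tfh21 of both genotypes, at 1.90 CPM in KO and 1.78 in WT, and Rad50 is below every WT library in all 3 KO libraries.

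Between the genes, the 22 peaks without a gene were higher in Tfh214 than in Tfh21. They summed to 56.5, 65.1 and 37.1 CPM in KO Tfh4, Tfh214 and Tfh21 and to 46.6, 56.6 and 43.6 CPM in WT. Tfh214 was the highest population and Tfh21 the lowest in each genotype. Tfh214 over Tfh21 was 1.48 (1.12 to 1.97; 124 and 88 reads), where peaks without a gene outside the locus stood at 1.03. It was 1.76 (1.14 to 2.73) in KO alone and 1.297 (0.890 to 1.90) in WT alone, pairs in which 3.46% and 4.81% of all genes had an interval that excluded 1. Tfh4 over Tfh21 was 1.27 (0.961 to 1.68), beside 1.09 outside. KO to WT was 1.06 (0.854 to 1.32), beside 0.943 outside, and turned to 0.935 (0.752 to 1.16) with median-of-ratios scaling, which sets the median peak level between libraries.

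By the genes on either side, these peaks fell into 5 groups. Downstream of Il4, 7 peaks at 53418110 to 53423873, from 2.09 to 7.85 kb beyond its transcript end, held 119 reads. They stood at 15.3, 23.8 and 12.4 CPM in KO Tfh4, Tfh214 and Tfh21 and at 18.9, 21.2 and 13.4 CPM in WT, and Tfh21 was again lowest in each genotype. Tfh214 over Tfh21 was 1.73 (1.06 to 2.87), Tfh4 over Tfh21 was 1.34 (0.816 to 2.23) and KO to WT was 0.915 (0.624 to 1.34). Of all genes 5.83% had an interval that excluded 1 for Tfh214 over Tfh21. Within the group, the peak at 53423326 to 53423607 held 11 reads in WT Tfh214 and 2 to 4 in every other library. The peak at 53419825 to 53420192 held 4 and 7 reads in KO and WT Tfh4, 1 and 1 in KO and WT Tfh214, and 0 in both Tfh21 libraries. Against a floor of 3 reads over both Tfh21 libraries, the observed level of that peak was at least 3.05-fold higher in Tfh4. The exact interval of the ratio, which also carries the counting error of the Tfh4 reads, began at 2.09. This peak was listed through its Tfh4 reads, 11 of 13 in all, so its ratio is no test of Tfh4 against Tfh21. Of all listed peaks 4.65% excluded 1 in that comparison.

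Upstream of Il4, towards Il13, 4 peaks at 53440307 to 53443842 (8.14 to 11.7 kb before the coding start) held 57 reads. They stood at 10.5, 7.51 and 4.76 CPM in KO Tfh4, Tfh214 and Tfh21 and at 10.9, 10.2 and 4.45 CPM in WT. Here too both Tfh21 libraries were the lowest. Tfh4 over Tfh21 was 2.33 (1.099 to 5.38), Tfh214 over Tfh21 was 1.995 (0.883 to 4.80) and KO to WT was 0.887 (0.502 to 1.55). For Tfh4 over Tfh21 12.3% of all genes had an interval that excluded 1. The first of them, at 53440307 to 53440613, held 5 and 5 reads in KO and WT Tfh4, 0 and 2 in KO and WT Tfh214 and 0 in both Tfh21 libraries. By the same floor its observed level was at least 2.77-fold higher in Tfh4 than in Tfh21, with an exact interval that began at 1.87. It too was listed through its Tfh4 reads, 10 of 12 in all, and 4.65% of all listed peaks excluded 1. Those reads are among the 28 that the group held in Tfh4, against 10 in Tfh21. The group's ratio of 2.33 thus rests in part on a peak listed through Tfh4, and the group was not summed without it.

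Beyond Il5, 9 peaks packed into 53548739 to 53552402, on the side of Irf1, held 141 reads, more than any other group. They stood at 23.4, 28.8 and 17.1 CPM in KO Tfh4, Tfh214 and Tfh21 and at 14.6, 22.8 and 19.6 CPM in WT. Their ratios were 1.20 (0.852 to 1.70) for KO over WT, 1.37 (0.887 to 2.12) for Tfh214 over Tfh21 and 1.02 (0.658 to 1.59) for Tfh4 over Tfh21, so counting error covered each difference. The lone peaks upstream of Kif3a and between Il13 and Rad50 held 17 and 12 reads and had intervals that included 1 in all 4 comparisons.

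**Figure D3:**
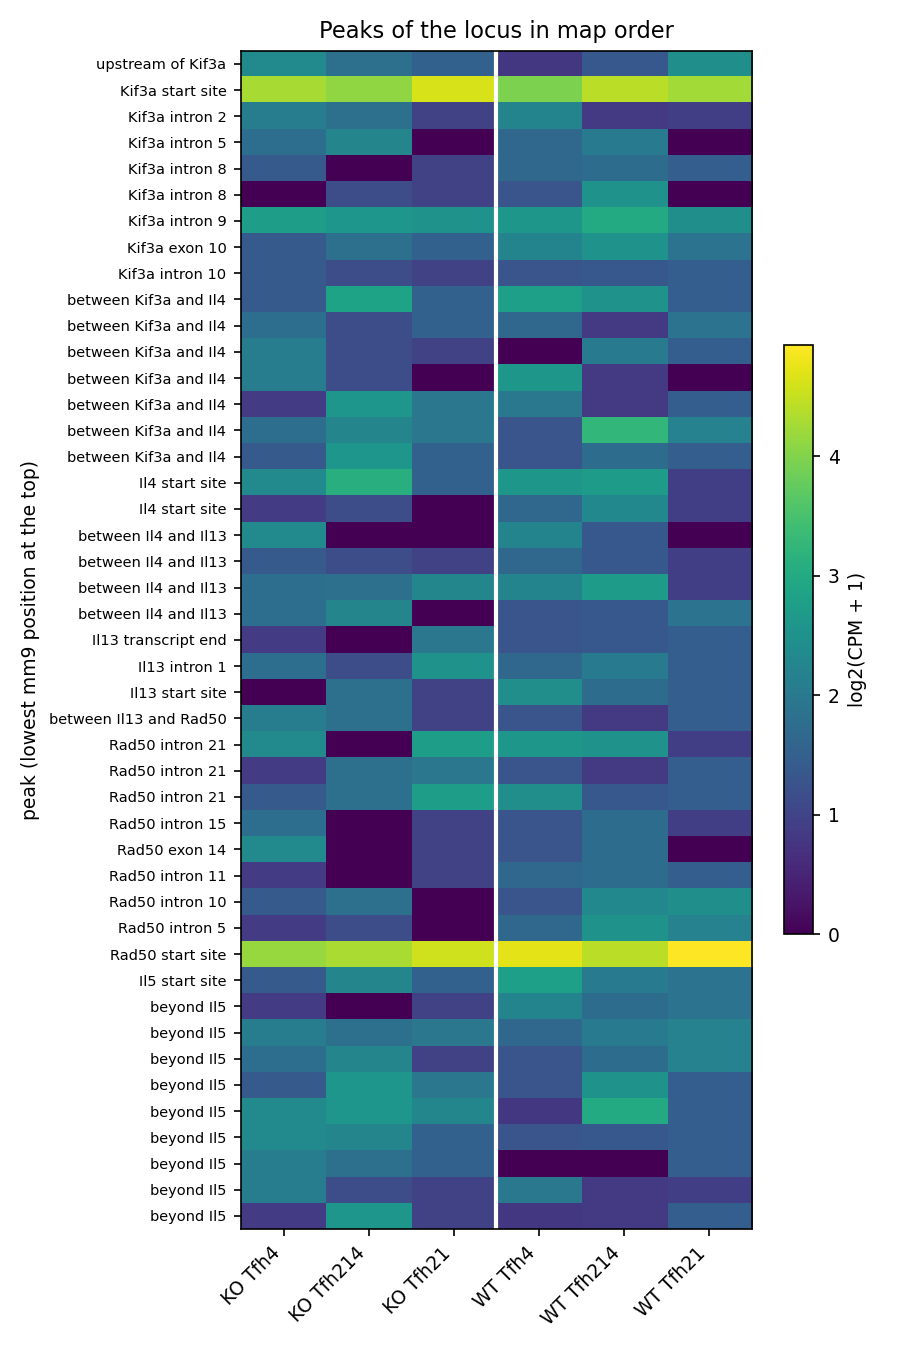
Heat map of log2(CPM + 1) for the 45 peaks in map order (rows) in the 6 libraries (columns, KO left of WT). The start sites of Kif3a and Rad50 are bright in all 6 libraries, and the other peaks are low, with 8 of the 45 peaks at 0 in KO Tfh214, the shallowest library, and 1 in WT Tfh214.

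All 5 genes had a KO to WT ratio below 1, and Rad50 was the one whose interval excluded it. Over all 19109 genes 53.8% had a ratio above 1, and the median was 1.02. Outside the locus, peaks of genes away from start sites stood at 0.960 and peaks under 30 reads at 0.905. The 9 peaks of Rad50 summed to 33.1, 27.5 and 40.0 CPM in KO Tfh4, Tfh214 and Tfh21, against 45.1, 43.2 and 44.5 CPM in WT. Every KO library lay below every WT library, and the closest pair was KO Tfh21 and WT Tfh214. KO to WT was 0.767 (0.595 to 0.985; 105 and 167 reads). Of all genes 10.6% had an interval that excluded 1, and that of Rad50 no longer did without the Tfh4 libraries (0.789, 0.569 to 1.09) or without the Tfh214 libraries (0.808, 0.601 to 1.08).

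Rad50's start-site peak (53520350 to 53521115) stood at 17.0, 18.8 and 22.8 CPM in KO Tfh4, Tfh214 and Tfh21 and at 25.5, 20.4 and 29.4 CPM in WT. KO was below WT in each population. In limma, fitted to log2(CPM + 1) over the 8986 peaks that averaged 20 or more reads per library, its KO minus WT difference was -0.34 ± 0.21 (SE, log2 scale; adjusted p = 0.334). The median of all those peaks was 0.19 higher in KO, and with median-of-ratios scaling the Rad50 difference was -0.52. Kif3a's start site (53380739 to 53381331) stood at 18.6, 16.3 and 23.8 CPM in KO Tfh4, Tfh214 and Tfh21 and at 14.6, 20.4 and 17.8 CPM in WT, a difference of 0.14 ± 0.23 (SE; limma adjusted p = 0.745). These were the only 2 of the 45 peaks strong enough for that fit, and neither was called in any of the 4 comparisons. The fit called 0.857% of all tested peaks for KO over WT, 0.0% for Tfh214 over Tfh21, 1.31% for Tfh4 over Tfh21 and 1.98% for Tfh4 over Tfh214. For Tfh214 over Tfh21, 345 peaks had an unadjusted p under 0.05 in limma and 177 in edgeR, which called 0 too, as did DESeq2. Its spread is over populations and genotypes and not over mice.

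Inside Rad50, the peaks fell into a group in intron 21 and scattered peaks in introns 15 to 5 and exon 14. Intron 21 (3 peaks, 53470353 to 53471644) lies 7.33 kb from the end of the transcript and 22.1 kb from the start of Il13. It held 8, 4 and 15 reads in KO Tfh4, Tfh214 and Tfh21 and 15, 9 and 5 in WT. KO Tfh21 had the highest level, 14.3 CPM, and WT Tfh21 the lowest, 4.45 CPM. KO to WT was 0.591 (0.217 to 1.49) in Tfh4, 0.708 (0.159 to 2.54) in Tfh214 and 3.20 (1.11 to 11.3) in Tfh21, a pair where 5.79% of all genes had an interval that excluded 1; whether the 3 ratios differ was not tested. Pooled over these opposite directions it was 1.14 (0.647 to 1.99). Tfh214 over Tfh21 was 0.351 (0.0848 to 1.102) in KO, 1.59 (0.478 to 6.04) in WT and 0.682 (0.312 to 1.44) pooled. The other 5 peaks, grouped after their values were seen, held 12, 3 and 3 reads in KO Tfh4, Tfh214 and Tfh21 and 12, 20 and 12 in WT. Their KO to WT ratio was 0.499 (0.271 to 0.882; 18 and 44 reads), where 10.6% of all genes had an interval that excluded 1. In Tfh21, KO thus had more reads than WT in intron 21 and fewer in the peaks nearer the start. The intron 5 peak (53509124 to 53509825) was the only peak of the 45 with an interval that excluded 1 for KO over WT, at 0.188 (0.0206 to 0.829; 2 and 13 reads). That is 2.22% of the peaks, beside 5.97% of all listed peaks. This peak was listed through its WT reads, 13 of 15 in all, so its ratio is no test of KO against WT. It is also 1 of the 5 peaks behind the ratio of 0.499, which were not summed without it.

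Kif3a as a whole had intervals that included 1 in every comparison. All 8 peaks gave 0.935 (0.718 to 1.21) for KO to WT and 1.26 (0.907 to 1.76) for Tfh214 over Tfh21. The 7 peaks inside the gene stood at 16.1, 16.3 and 10.5 CPM in KO Tfh4, Tfh214 and Tfh21 and at 19.7, 24.4 and 11.6 CPM in WT, with both Tfh21 libraries lowest. For these 7 peaks Tfh214 over Tfh21 was 1.93 (1.15 to 3.31; 44 and 24 reads), with 1.56 (0.643 to 3.83) in KO alone and 2.11 (1.07 to 4.38) in WT alone. The Kif3a start site stood at 0.910 (0.577 to 1.43), and peaks of genes away from start sites outside the locus at 1.01. An interval that excluded 1 was found in 5.83% of all genes with genotypes pooled and in 4.81% in WT alone. The densest of the 7 was a 240-base peak in intron 9 (53403917 to 53404157), with 37 reads and 22.3 CPM per kb, which adjoined a peak in exon 10. Its reads were 7, 4 and 5 in KO Tfh4, Tfh214 and Tfh21 and 7, 9 and 5 in WT, with levels of 4.45 to 7.08 CPM that did not set a population apart. In intron 5 (53394311 to 53394896) Tfh4 held 3 and 3 reads in KO and WT, Tfh214 3 and 4, and Tfh21 0 and 0. By the same floor the observed level of this peak was at least 2.45-fold higher in Tfh214 than in Tfh21, with an exact interval that began at 1.51. All its 13 reads lay in Tfh4 and Tfh214, so it was listed through them. Of all listed peaks 3.51% excluded 1 for Tfh214 over Tfh21. A peak in intron 8 (53398935 to 53399311) held 7 of its 10 reads in Tfh214 and 1 in Tfh21, so it was listed through Tfh214. Both peaks enter the ratio of 1.93, which thus rests in part on them, and the 7 peaks were not summed without them.

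**Figure D4:**
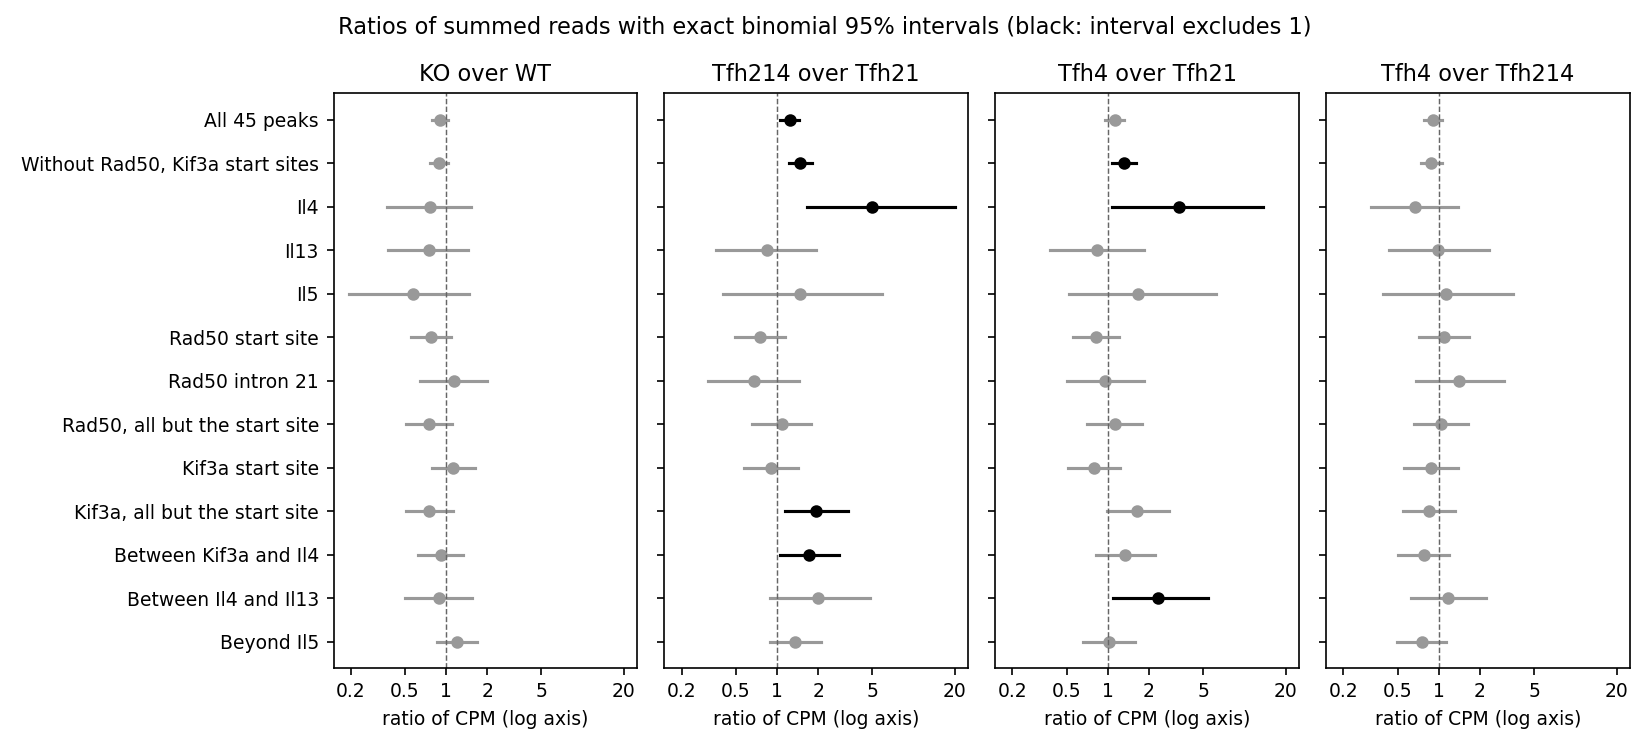
Ratios of CPM (horizontal, log axis) of summed reads for the sums named on the vertical axis, without Rad50 as a whole, in the 4 comparisons, with exact binomial 95% intervals that cover counting error only; intervals that exclude 1 are black. Il4 and the peaks without the Rad50 and Kif3a start sites lie right of 1 for Tfh214 and for Tfh4 over Tfh21. For KO over WT and for Tfh4 over Tfh214 every interval drawn includes 1.

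Summed over all 45 peaks, the locus stood at 134, 142 and 124 CPM in KO Tfh4, Tfh214 and Tfh21 and at 147, 164 and 127 CPM in WT. Tfh214 was highest and Tfh21 lowest in each genotype. Tfh214 over Tfh21 was 1.24 (1.05 to 1.46), and it was 1.14 (0.881 to 1.48) in KO alone and 1.29 (1.04 to 1.61) in WT alone. Cut into 11725 segments of 210 kb, the length of the window, 10.9% of the genome's segments had an interval that excluded 1 in that comparison. Those segments held a median of 371 reads against 975 in the window. Fewer reads than in the window were held by 79.1% of them, so shares over segments come mostly from shallower ones. Tfh4 over Tfh21 was 1.12 (0.957 to 1.32), Tfh4 over Tfh214 was 0.906 (0.778 to 1.06; 1.06 with median-of-ratios scaling, which turns its direction) and KO over WT was 0.901 (0.791 to 1.03), with 19.3%, 14.7% and 19.9% of segments excluding 1. Without the Rad50 and Kif3a start sites, a split made after the values were seen, the remaining 43 peaks gave 1.49 (1.22 to 1.82) for Tfh214 over Tfh21 and 1.31 (1.08 to 1.60) for Tfh4 over Tfh21. Listed peaks outside the locus gave 1.02 and 1.08 away from start sites, and 1.04 and 1.15 where they held under 30 reads. KO over WT was 0.892 (0.763 to 1.04), beside 0.952 and 0.905 in those classes.

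Peak by peak, 33 of the 45 had a Tfh214 over Tfh21 ratio above 1, 73.3% against 54.5% of all listed peaks, and their median was 1.47 against 1.05. For Tfh4 over Tfh21 it was 57.8% against 55.7%, and for KO over WT 46.7% against 47.5%. An interval that excluded 1 was found at 2 of 45 peaks (4.44%) for Tfh214 over Tfh21, where 3.51% of all peaks had one. It was found at 2 for Tfh4 over Tfh21, where 4.65% did, and at 1 for Tfh4 over Tfh214, where 5.34% did. The share of single peaks with such an interval was therefore near or below that of all peaks in every comparison. For Tfh4 over Tfh214 none of the 5 genes excluded 1, where 9.48% of all genes did.

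Marker genes of other cells moved with some of these populations. Of a list of 7 B cell genes 5 had listed peaks, and Ms4a1 and Cd79a had none. They summed to 122, 119 and 101 CPM in KO Tfh4, Tfh214 and Tfh21 and to 150.01, 153 and 113 CPM in WT, so that Tfh21 was lowest here too. Of 6 mast cell, basophil and eosinophil genes, which use the same cytokine locus, 4 had peaks and Mcpt8 and Gata2 had none, and Fcer1a and Ms4a2 were at 0 in KO Tfh214. The list summed to 46.0, 20.04 and 29.5 CPM in KO Tfh4, Tfh214 and Tfh21 and to 40.1, 31.5 and 27.6 CPM in WT. The 4 myeloid genes summed to 55.7, 42.6 and 41.9 CPM in KO and 54.6, 56.6 and 51.7 CPM in WT in the same order. Of 2 CD8 T cell genes Cd8b1 had peaks and Cd8a had none, with 12.1, 6.26 and 3.81 CPM in KO and 13.1, 7.86 and 8.02 CPM in WT. The part of such cells in the ratios of the locus was not tested.

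Around the locus, 20 neighbouring genes, the 10 nearest on each side, gave intervals that excluded 1 for 0 genes in Tfh214 over Tfh21, where 5.83% of all genes did. For Tfh4 over Tfh21 5 were higher, beside 12.3% of all genes, for Tfh4 over Tfh214 3 were higher, beside 9.48%, and for KO over WT 1 was lower, beside 10.6%. With median-of-ratios scaling the counts were 1 higher, 7 higher, 5 higher and 5 lower in the same order. The lower gene was P4ha2, at 0.596 (0.402 to 0.871). It was also among those higher in Tfh4 than in Tfh21, at 1.84 (1.17 to 2.95), with Slc22a4 at 1.95 (1.18 to 3.34) Pdlim4 at 1.73 (1.06 to 2.91), Fstl4 at 1.28 and 4933405E24Rik at 1.66. Irf1, the neighbour beyond Il5 and a transcription factor of interferon responses, stood at 1.103 (0.865 to 1.41), 1.085 (0.803 to 1.47) and 0.879 (0.652 to 1.19) for KO over WT, Tfh214 over Tfh21 and Tfh4 over Tfh21.

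Of 25 genes of factors known to act on the locus, all listed, 0 were higher and 4 lower in Tfh214 than in Tfh21, where 5.83% of all genes differed in either direction. In Tfh4 over Tfh21 0 were higher and 11 lower, where 12.3% of all genes differed, but with median-of-ratios scaling 1 was higher (Runx3) and 0 lower, so this direction holds under the CPM scaling alone. For Tfh214 over Tfh21 that scaling gave 0 higher and 3 lower. Their median ratio in Tfh4 over Tfh21 was 0.861 in CPM and 1.05 with that scaling. Gata3, the main regulator of Th2 cells, stood at 0.944 (0.771 to 1.16) in Tfh214 over Tfh21 and at 0.789 (0.646 to 0.962) in Tfh4 over Tfh21. Tbx21, which encodes T-bet and opposes it, was lower in Tfh214, at 0.586 (0.403 to 0.844). Runx3, whose product silences Il4 in Th1 cells, stood at 0.896 (0.723 to 1.11) in Tfh214 and at 1.09 (0.895 to 1.32) in Tfh4 over Tfh21, and Maf, an activator of Il4, at 0.994 (0.821 to 1.20) and 0.711 (0.584 to 0.865). The others lower in Tfh214 were Ets1 (0.818), Tcf7 (0.767) and Runx1 (0.863). In Tfh4 over Tfh21 by CPM, Tbx21 (0.677), Gfi1 (0.702), Tcf7 (0.759), Ets1 (0.774), Ezh2 (0.781), Ikzf1 (0.816), Nfatc2 (0.829), Nfatc1 (0.830) and Runx1 (0.866) were lower too. Tfh4 was lower than Tfh214 at Maf (0.715), Ikzf1 (0.751) and Nfatc1 (0.881), and with the other scaling those 3 gave way to 4 higher genes. For KO over WT Ets1 (1.24), Maf (1.20), Satb1 (1.18) and Ikzf1 (1.15) were higher and Runx1 (0.915) lower, and 0 were higher and 4 lower with that scaling, where 10.6% of all genes differed by CPM, so the direction of the list turned with the scaling here too.

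The genes whose summed level was most like that of Il4, Il13 and Il5 together over the 6 libraries were Ppfia1 (Pearson r = 0.977), Spats2l (0.970), Nkd2 (0.962), Rasgef1c (0.957) and Hecw2 (0.953). They were taken from 10825 genes with at least 120 reads. All points share the same 6 libraries and depths, and 33 genes had r over 0.9, so the likeness is a description only.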

How the data were processed

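The authors deposited 1 peak list with CPM values in 6 libraries, scaled to the reads in listed peaks. Bowtie 1.3.0, MACS2 2.0, HOMER and build mm9 stand in the submitters' processing notes, without roles; how peaks were called, duplicates treated and cut positions shifted is not given in the sources used here. By the labels' protocols, tagmentation ran for 30 min at 37 °C and paired reads of 75 bases were sequenced. In the file, the field headed gene symbol holds positions and that headed gene ID holds the symbol. Coordinates are mm9 as deposited; promoter sequences are from RefSeq (GRCm38.p6), and no coordinates were converted.

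Whole reads were recovered from the value of 1 read per library; at least 99.9989% of values lay within 0.02 reads of a whole number, with a wider allowance for large values. Reads were summed over libraries and divided by library totals. limma 3.58.1 (additive in genotype and population, variance trend, 2 residual degrees of freedom, Benjamini-Hochberg threshold of 0.05) was fitted to log2(CPM + 1), which understates changes of low peaks, over the whole table. edgeR 4.0.16 and DESeq2 1.42.0 on recovered reads, other scalings, filters and left-out libraries were alternatives. limma and the intervals were tested on simulated data. R 4.3.3, Python 3.11.15, numpy 2.4.6, scipy 1.17.1, pandas 2.3.3 and matplotlib 3.10.9 were used.

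Every member of the locus was described. Of the regulator list, Gata3, Tbx21, Maf and Runx3 are named, with any gene whose interval excludes 1. Rad50 has no entry among the RefSeq promoters. Members, lists and the limma settings were chosen with earlier results of these data known.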

Additional observations from a re-analysis of the deposited data

How the results depend on the processing

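No paired analysis was possible because no replicate numbers pair the libraries, 1 per genotype and population; for KO over WT, population is already a term in the limma fit. For Tfh4 over Tfh21 the locus ratio of 1.12 became 1.37 with median-of-ratios scaling, 1.36 with TMM scaling, and 0.941 over peaks with at least 15 reads; the first 2 excluded 1 and so did the values without start-site peaks (1.24) and without the Rad50 and Kif3a start sites (1.31). For Tfh4 over Tfh214 it became 1.06 under each of those scalings, on the other side of 1 from 0.906, and 0.803 (0.669 to 0.963) over peaks with at least 15 reads. For Tfh214 over Tfh21 it was 1.49 without the Rad50 and Kif3a start sites, an alternative chosen after seeing the data; its interval included 1 with member genes only (1.12), with at least 15 reads (1.17) and without the WT libraries (1.14). For KO over WT it was 0.793 (0.696 to 0.903) with median-of-ratios scaling, 0.792 with TMM and 0.820 (0.695 to 0.966) with member genes only, each excluding 1. Leaving out libraries gave 0.881 to 0.935 for KO over WT, 1.14 to 1.29 for Tfh214 over Tfh21, 1.08 to 1.15 for Tfh4 over Tfh21 and 0.895 to 0.947 for Tfh4 over Tfh214. The causes were not tested.

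Il4 kept an interval above 1 for Tfh214 over Tfh21 under both scalings (5.20 and 5.18) and with its highest peak alone, but not without the WT libraries (4.61, 0.877 to 45.5). For Tfh4 over Tfh21 it lost it with the highest peak alone and without the KO or the WT libraries. Rad50 lost its interval for KO over WT with its start-site peak alone (0.779, 0.554 to 1.09). The Rad50 and Kif3a start sites had 0 limma calls under each alternative run; leaving out libraries was run for KO over WT alone. The other 43 peaks were tested in limma only without a filter, with 0 calls, where 2, 2, 4 and 2 of the 45 had an unadjusted p under 0.05 in the order KO over WT, Tfh214 over Tfh21, Tfh4 over Tfh21 and Tfh4 over Tfh214. Over all 8986 tested peaks edgeR called 1 for KO over WT and 0 elsewhere. Population comparisons could not be fitted without 1 genotype, which leaves no residual degrees of freedom.

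At 10 to 37 reads for 43 of the 45 peaks, depth limits single peaks to differences of several-fold; a difference below that was not detectable.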
